A study of Homo sapiens with 4 samples.

Results

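The genes described here are the hypoxia-inducible factor gene HIF1A, the VHL gene whose product marks HIF-1α for destruction, and 8 genes that are classic targets of HIF in low oxygen, CA9, CA12, ANGPTL4, VEGFA, ADM, NDRG1, EGLN3 and BNIP3. They were taken by name from the count table, and all 10 had a row among its 40205 genes. RNA came from cells labelled SKOV3, a human ovarian carcinoma line, kept in serum-supplemented medium under 5% CO2, with no low-oxygen arm named in the labels. The treated group held 2 libraries of cells exposed to 80 μg/mL of 20(S)-Rg3, a ginsenoside (a steroid-like saponin of ginseng), for 24 h, and the control group held 2 libraries of cells labelled as control. Each library was made from RNA described as pooled. Nothing in the labels ties the 2 libraries of a group to separate cultures, so the spread that p-values are read against may be technical only.

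Totals ran from 24571619 to 30132517 counts in the Rg3 libraries and from 24482846 to 26731913 counts in the control libraries. Replicates were further apart in the Rg3 group, where chi-square over its degrees of freedom was 33.8, against 7.18 in the control group. On the first principal component of log2 CPM, Rg3 replicate 1 lay at −21.3 and Rg3 replicate 2 at 25.3, with control 1 at −7.42 and control 2 at 3.38 between them. Mitochondrially encoded RNA took 9.07% and 7.25% of counts in Rg3 replicates 1 and 2, and 8.48% and 9.48% in controls 1 and 2, so that Rg3 replicate 2 was lowest. CA9 and ANGPTL4 were also lowest in Rg3 replicate 2, and the part of this difference between libraries in their values was not tested. Of 7 epithelial and ovarian carcinoma markers, KRT8, KRT18, MSLN and ERBB2 were well counted, PAX8 had 8 to 18 counts in a library, KRT19 had 2 counts in all, and EPCAM had 0 counts in every library. The summed level of these markers was 3430 and 4629 CPM (counts scaled to a common library size) in Rg3 libraries and 4437 and 5387 CPM in control libraries. Of the leukocyte, endothelial and fibroblast markers, PTPRC had 3 counts in all, CD3E, TEK and CLDN5 had 0, and COL1A2 had 2. CD68 carried most of the leukocyte sum, with 533 and 252 counts in Rg3 libraries and 525 and 442 in control libraries. COL1A1 had 144 and 39 counts in Rg3 libraries and 48 and 60 in control libraries, while PDGFRB averaged 31.0 CPM with Rg3 and 28.7 CPM in controls and CDH5 16.2 CPM with Rg3 and 18.7 CPM in controls. Summed levels of the 6 fibroblast markers were 39.1 and 29.5 CPM in Rg3 libraries, and both control libraries lay between these values. Summed levels were 16.9 and 16.5 CPM with Rg3 and 18.8 and 19.8 CPM in controls for the 5 endothelial markers, and 17.7 and 10.5 CPM with Rg3 and 21.6 and 17.2 CPM in controls for the 6 leukocyte markers. The part of these markers in the results below was not tested. In bulk RNA, a lower share of expressing cells and less RNA per cell cannot be told apart.

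HIF-1 is a pair of proteins, an oxygen-labile α subunit and the stable partner ARNT. In oxygen, prolyl hydroxylases of the EGLN family modify HIF-1α, the VHL ubiquitin ligase binds the modified protein and the proteasome destroys it. In low oxygen, or where VHL is lost, HIF-1α accumulates and binds the hypoxia response element, with the core ACGTG or GCGTG, near genes for pH control, blood vessel growth, oxygen sensing and mitochondrial turnover. Most of this control acts on the HIF-1α protein, which RNA counts do not measure.

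None of the 10 genes passed the adjusted threshold. Fitted levels were lower with Rg3 for 8 of them, against 47.5% of all genes tested. The 8 include ADM, at 0.990 of the control level, and CA9 and ANGPTL4 were lower by the largest amounts. CA9 averaged 0.981 ± 0.449 CPM with Rg3 and 3.59 ± 1.01 CPM in controls, and ANGPTL4 averaged 3.23 ± 1.63 CPM with Rg3 and 8.32 ± 2.19 CPM in controls (SD, n = 2 per group here and below). NDRG1 and CA12 lay lower by smaller amounts, at 0.664 and 0.752 of the control level. VEGFA, ADM and VHL lay within 1.10-fold of the control level.

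Counts were tested with edgeR's quasi-likelihood test over 16323 genes, and p-values were adjusted by the Benjamini-Hochberg method over all of them, with calls at an adjusted p under 0.05. That test called 0 of the 10 genes and 0.0306% of all genes. The 10 genes, and the lists and promoter motifs below, were chosen with earlier results of these data known. Shares over all genes therefore stand beside them as description and not as a test. At an unadjusted p under 0.05, 4 of the 10 were lower (CA9, ANGPTL4, NDRG1 and CA12), against 2.90% of all genes tested. In 6 of the 10 both Rg3 libraries lay below both control libraries, a placing found for 17.0% of all genes, and 0 of the 10 had both Rg3 libraries above both controls, found for 15.3%. The log2 fold change of Rg3 over control was negative for 8 of the 10, against 47.5% of all genes, and its median was −0.33, against 0.01 over all genes. All 10 genes passed the low-count filter, and all 10 were above its cutoff of 0.390 CPM in all 4 libraries.

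**Figure D1:**
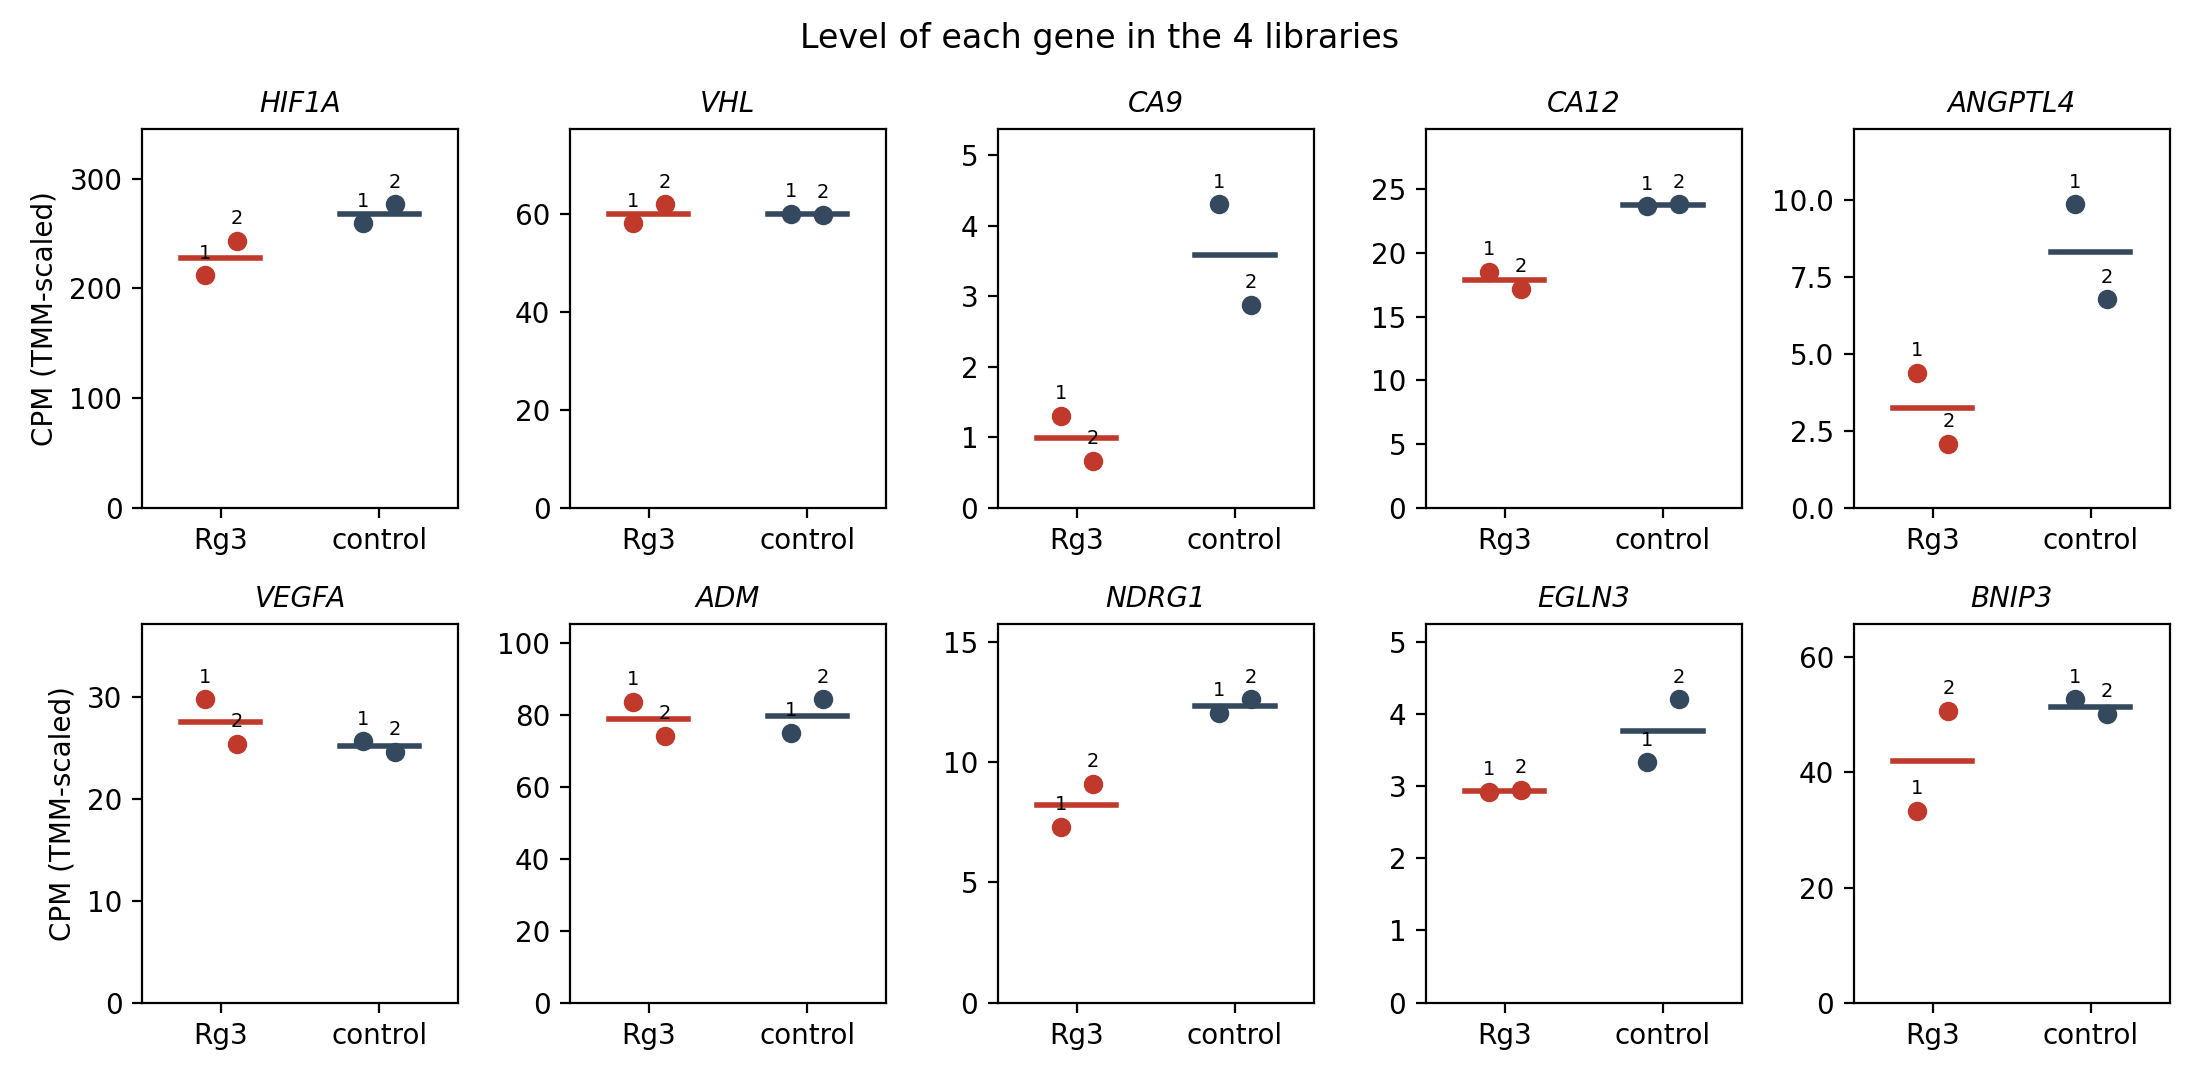
Level of each of the 10 genes in the Rg3 libraries (left, red) and the control libraries (right, dark) as CPM after TMM scaling, with 1 point per library numbered by replicate and a line at the mean of the 2 libraries. The groups do not overlap for HIF1A, CA9, CA12, ANGPTL4, NDRG1 and EGLN3, where both Rg3 points lie below both control points, and they overlap for VHL, VEGFA, ADM and BNIP3.

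HIF1A, which encodes the oxygen-regulated α subunit, had 212 and 243 CPM in Rg3 libraries, against 259 and 276 CPM in control libraries. CPM values here follow TMM scaling, which corrects each library total for composition, and they are not divided by gene length, so levels are compared between libraries and not between genes. Both Rg3 values lay below both control values, with a gap smaller than the distance between the 2 Rg3 libraries. The log2 fold change was −0.24 (SE 0.14, 95% interval −0.56 to 0.09), with an adjusted p of 0.999 from edgeR. The interval covers levels with Rg3 from 0.676 to 1.07 times the control level, and leaving out each library in turn moved the estimate between −0.34 and −0.14. The antisense row HIF1A-AS2 had 0 counts in every library, and the pseudogene HIF1AP1 had 1 to 5.

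VHL, which encodes the substrate-binding part of the ubiquitin ligase, had 58.0 and 61.9 CPM in Rg3 libraries, against 60.0 and 59.8 CPM in control libraries. The Rg3 values lay on either side of the controls. Rg3 over control gave a log2 fold change of 0.00 (SE 0.13, 95% interval −0.30 to 0.30), which covers levels from 0.811 to 1.23 times the control level. Its sign turned to −0.05 without Rg3 replicate 2.

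The other parts of the pathway above the targets held no called gene either. Of the α subunits, EPAS1 (HIF-2α) had 64.6 and 32.7 CPM in Rg3 libraries, against 38.9 and 27.9 CPM in control libraries, so that Rg3 replicate 1 alone was high. Its log2 fold change was 0.55 (SE 0.31), and it was −0.02 without Rg3 replicate 1 and 0.95, past the threshold, without Rg3 replicate 2 (edgeR adjusted p = 0.00707). The partner ARNT had 47.6 and 48.3 CPM in Rg3 libraries, against 49.8 and 48.3 CPM in control libraries, while HIF3A and ARNT2 had at most 4 counts in a library. All 13 genes of oxygen sensing and HIF degradation were tested and 0 were called, with log2 fold changes above 0 for 10, below 0 for 3 and a median of 0.10, which turned to −0.05 without Rg3 replicate 2. EGLN1, the main HIF prolyl hydroxylase, had 47.8 and 47.4 CPM in Rg3 libraries, against 43.8 and 45.2 CPM in control libraries (log2 fold change 0.10, SE 0.13).

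Of 12 HIF coactivators and modulators, 12 were tested and 0 called, 8 above and 4 below the control level, at a median log2 fold change of 0.10, which turned to −0.09 without Rg3 replicate 1. HSP90AA1, a chaperone that holds HIF-1α stable, had 740 and 769 CPM in Rg3 libraries, against 555 and 620 CPM in control libraries (log2 fold change 0.36, SE 0.14). CITED4, which competes for the coactivators CBP and p300, had 40.4 and 27.8 CPM in Rg3 libraries, against 46.0 and 54.8 CPM in control libraries (log2 fold change −0.56, SE 0.20). The edgeR adjusted p was 0.999 for each. Leaving out Rg3 replicate 1 moved CITED4 to −0.85, and leaving out Rg3 replicate 2 moved it to −0.32.

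The promoter sequences of HIF1A and of targets were searched for the core of the hypoxia response element. RefSeq promoter windows (build GRCh38.p14, 250 bases before to 50 after the start of the gene) were at hand for HIF1A, CA9, CA12, ANGPTL4, ADM, EGLN3 and BNIP3. Either ACGTG or GCGTG, on either strand, stood in a window of 6 of these 7 genes, HIF1A among them, the exception being EGLN3. By window it stood in 6 of their 8 (HIF1A has a pair), against 48.4% of the 35116 windows searched. The 6 windows with a core held 62.0% to 80.7% G and C, the second HIF1A window 31.7% and the EGLN3 window 65.0%. The windows compared were not matched for base composition. The narrower ACGTG stood in 3 of the 7 genes, CA9, ANGPTL4 and BNIP3. By window it stood in 3 of the 8, against 21.4% of all windows. The 250 bases before the start of these 3 genes are shown because they carry ACGTG. For CA9 and ANGPTL4 both Rg3 libraries lay below both controls, while for BNIP3 the groups overlapped. Capitals mark each ACGTG or GCGTG core, which reads CACGT or CACGC when it lies on the opposite strand. The CA9 stretch is chr9:35673678-35673927 on the plus strand, the ANGPTL4 stretch chr19:8363905-8364154 on the plus strand and the BNIP3 stretch chr10:131981924-131982173 on the minus strand, each written 5′ to 3′ along its gene.
CA9: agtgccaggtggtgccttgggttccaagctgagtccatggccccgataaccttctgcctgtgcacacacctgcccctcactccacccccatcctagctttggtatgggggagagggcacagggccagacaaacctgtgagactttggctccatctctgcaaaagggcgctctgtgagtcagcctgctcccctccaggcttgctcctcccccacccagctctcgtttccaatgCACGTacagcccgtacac
ANGPTL4: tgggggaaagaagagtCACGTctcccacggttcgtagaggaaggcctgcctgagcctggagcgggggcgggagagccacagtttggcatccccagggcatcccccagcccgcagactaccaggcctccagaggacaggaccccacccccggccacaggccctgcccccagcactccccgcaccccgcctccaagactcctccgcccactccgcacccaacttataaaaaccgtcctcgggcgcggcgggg
BNIP3: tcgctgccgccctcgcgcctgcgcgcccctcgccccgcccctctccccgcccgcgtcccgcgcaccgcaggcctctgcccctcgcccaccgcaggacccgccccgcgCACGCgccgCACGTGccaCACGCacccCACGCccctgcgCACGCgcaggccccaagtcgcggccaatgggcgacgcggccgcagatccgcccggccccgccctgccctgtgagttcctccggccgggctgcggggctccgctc

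In CA9 the single core lies from base −18 to base −14 before the start. In ANGPTL4 the single core lies from base −234 to base −230. BNIP3 held 6 cores between bases −143 and −100, of which ACGTG on one strand overlaps ACGTG on the other in the palindrome CACGTG. A match of 5 bases is a description of these letters and not a binding site, and hypoxia response elements outside this window were not searched.

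CA9 encodes carbonic anhydrase IX, a membrane enzyme that hydrates carbon dioxide outside the cell and helps hypoxic tumour cells keep their internal pH. CA9 had 40 and 16 counts in Rg3 libraries, against 106 and 76 counts in control libraries. As CPM these were 1.30 and 0.664 in Rg3 libraries, against 4.30 and 2.88 in control libraries. Both Rg3 libraries lay below both controls. The counts were few, and the 16 counts of Rg3 replicate 2 have an exact Poisson 95% interval of 9.15 to 26.0 counts, which covers counting error only.

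The log2 fold change of CA9 was −1.84 (SE 0.39, 95% interval −2.74 to −0.93), that is, 0.280 of the control level with an interval of 0.15 to 0.52. Among the 10 genes it had the smallest p (0.00174 unadjusted, rank 55 of 16323), and its adjusted p was 0.518 in edgeR. DESeq2 called it at a log2 fold change of −1.85 (adjusted p = 0.0388), with 0.112% of genes called lower by that tool. EdgeR without a low-count filter called it as well (log2 fold change −1.83, adjusted p = 8.66e-06), with 0.483% of genes called lower. Leaving out Rg3 replicate 1 gave −2.42, and leaving out Rg3 replicate 2 gave −1.46.

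CA12 encodes the second membrane-bound carbonic anhydrase of tumours. It had 18.5 and 17.2 CPM in Rg3 libraries, against 23.7 and 23.8 CPM in control libraries. The replicates of each group lay close together, and the groups did not overlap. This gave a log2 fold change of −0.41 (SE 0.15, 95% interval −0.76 to −0.07), with an unadjusted p of 0.0257 and an adjusted p of 0.999 in edgeR.

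Of the 15 carbonic anhydrases 5 were tested, all with a negative log2 fold change, at a median of −0.41, and 0 were called. Next to CA9 and CA12, CA11 had 0.455 and 1.08 CPM in Rg3 libraries, against 1.14 and 1.97 CPM in control libraries. CA5B, a mitochondrial form, had 5.19 and 4.40 CPM in Rg3 libraries, against 6.05 and 5.41 CPM in control libraries. CA13 had 1.94 CPM on average in either group, and none of the other 10 carbonic anhydrases had more than 5 counts in a library.

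ANGPTL4 encodes a secreted inhibitor of lipoprotein lipase that is induced by HIF and by PPAR receptors. It had 135 and 50 counts in Rg3 libraries, against 243 and 179 counts in control libraries. As CPM these were 4.38 and 2.08 in Rg3 libraries, against 9.86 and 6.77 in control libraries. The groups did not overlap, but the Rg3 libraries differed from each other by 1.07 on the log2 scale.

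ANGPTL4 had a log2 fold change of −1.35 (SE 0.36, 95% interval −2.19 to −0.50), that is, 0.393 of the control level with an interval of 0.219 to 0.706. Its unadjusted p was 0.00657 and its adjusted p 0.789 in edgeR. It was called without a low-count filter (log2 fold change −1.34, adjusted p = 3.13e-05) but not by DESeq2 (log2 fold change −1.35, adjusted p = 0.0778). Leaving out Rg3 replicate 1 gave −1.99, and leaving out Rg3 replicate 2 gave −0.92. None of the other 7 angiopoietin-like genes passed the low-count filter.

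CA9 and ANGPTL4 were called together in the fits without control 2 and without Rg3 replicate 1. Those fits called 0.107% and 2.69% of genes lower. In the fits without control 1 and without Rg3 replicate 2 they were not called, with adjusted p of 0.329 and 0.0539 for CA9 and 0.669 and 0.0713 for ANGPTL4.

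The 2 genes also took the same order over the libraries, control 1 highest, then control 2, Rg3 replicate 1 and Rg3 replicate 2. That order held for 5.05% of all genes tested, or 825 genes, all among the 2767 with both Rg3 libraries below both controls. CA9 and ANGPTL4 were already so placed, so the share over all genes understates how often such genes share this order. Each gene's log2 CPM was then centred on its own mean over the 4 libraries. The profiles of CA9 and ANGPTL4 differed by a root mean square of 0.24, and CA9 differed from each of the other 8 genes by 0.82 or more. This measure grows with the size of a gene's differences, which were largest for these 2 genes.

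**Figure D2:**
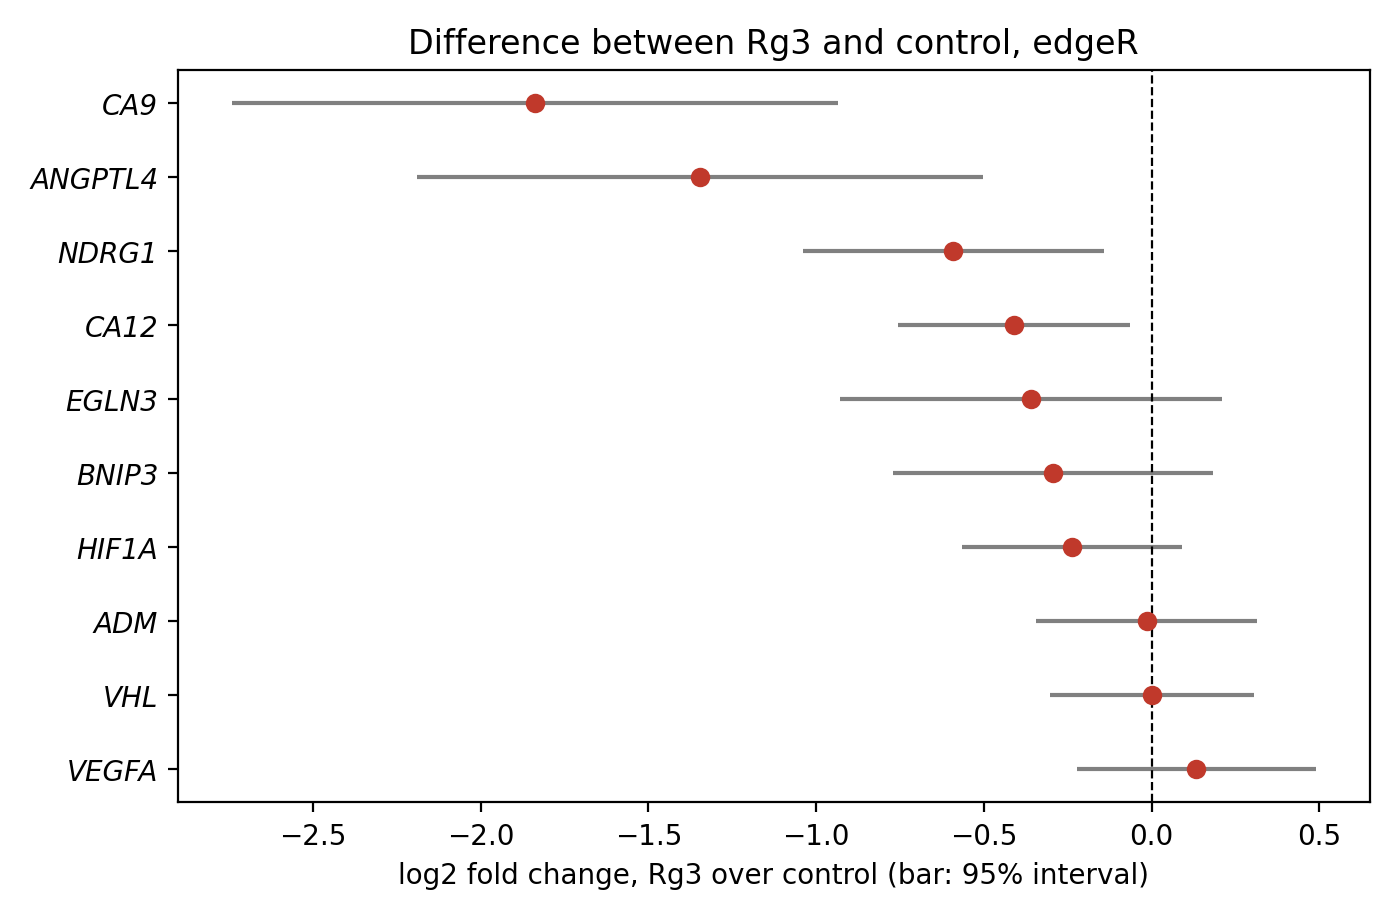
Log2 fold change of Rg3 over control for each of the 10 genes from edgeR, with bars for the 95% interval and a dashed line at no difference. The intervals of CA9, ANGPTL4, NDRG1 and CA12 lie below 0, and those of EGLN3, BNIP3, HIF1A, ADM, VHL and VEGFA include 0.

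VEGFA and ADM encode secreted factors of blood vessel growth, and both are textbook HIF targets. VEGFA had 29.8 and 25.4 CPM in Rg3 libraries, against 25.7 and 24.7 CPM in control libraries. Rg3 replicate 1 was highest and the groups overlapped. On the log2 scale the difference was 0.13 (SE 0.15, 95% interval −0.22 to 0.49), and its edgeR adjusted p was 0.999. It ran from 0.02 to 0.24 when each library was left out in turn.

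ADM, the adrenomedullin gene, had 83.5 and 74.0 CPM in Rg3 libraries, against 74.9 and 84.2 CPM in control libraries. The 2 groups spanned nearly the same range. On the log2 scale the difference was −0.01 (SE 0.14, 95% interval −0.34 to 0.31), and its sign turned to 0.07 without Rg3 replicate 2 and to 0.08 without control 2. For both genes the interval left out the log2 fold changes of CA9 and ANGPTL4, a difference between genes that was not itself tested.

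The receptors of VEGFA in blood vessels, FLT1 and KDR, had 0 counts in every library, which does not exclude a low level. The co-receptors NRP1 and NRP2 were counted. NRP2 had 31.3 and 28.0 CPM in Rg3 libraries, against 37.6 and 33.9 CPM in control libraries (log2 fold change −0.27, SE 0.15). The median over the 5 tested VEGF ligands and receptors was −0.25, with 0 called, and it was 0.04 without a low-count filter, where more genes entered, and 0.09 without control 2. The adrenomedullin receptor CALCRL had 1 count in all, and its partners RAMP2 and RAMP3 had 0.

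EGLN3 encodes a prolyl hydroxylase that HIF itself induces, so that it feeds back on HIF-1α. It had 90 and 71 counts in Rg3 libraries, against 82 and 111 counts in control libraries. As CPM these were 2.92 and 2.95 in Rg3 libraries, against 3.33 and 4.20 in control libraries. Both Rg3 libraries lay just below control 1, whose exact Poisson 95% interval of 2.65 to 4.13 CPM covers both Rg3 values. This gave a log2 fold change of −0.36 (SE 0.24, 95% interval −0.93 to 0.21), and −0.18 without control 2.

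NDRG1 encodes a cytoplasmic protein induced by hypoxia, metal chelation and stress. It had 7.30 and 9.09 CPM in Rg3 libraries, against 12.1 and 12.6 CPM in control libraries. The groups did not overlap, and the control libraries lay close together. This gave a log2 fold change of −0.59 (SE 0.19, 95% interval −1.04 to −0.14), with an unadjusted p of 0.0165 and an adjusted p of 0.953 in edgeR.

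All 4 NDRG genes were tested, and in all 4 both Rg3 libraries lay below both controls, the placing found for 17.0% of all genes. Log2 fold changes were −0.38 for NDRG2, −0.23 for NDRG3 and −0.30 for NDRG4, with 0 of the family called and an adjusted p of 0.999 for each of these 3 in edgeR.

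BNIP3 encodes a mitochondrial outer membrane protein that recruits the autophagy machinery in hypoxia. It had 33.3 and 50.7 CPM in Rg3 libraries, against 52.7 and 50.2 CPM in control libraries. Rg3 replicate 1 stood apart from the other 3 libraries, which ran from 50.2 to 52.7 CPM. Over all libraries the log2 fold change was −0.29 (SE 0.20, 95% interval −0.77 to 0.18), and the edgeR adjusted p was 0.999.

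Without Rg3 replicate 1 the log2 fold change of BNIP3 was −0.02. Without Rg3 replicate 2 it was −0.63 and passed (edgeR adjusted p = 0.0108), as did NDRG1 at −0.75 (edgeR adjusted p = 0.0322), in a fit that called 0.879% of genes lower. A processed copy, BNIP3P1, had 281 and 375 counts in Rg3 libraries, against 327 and 450 counts in control libraries, and could share reads with BNIP3. Rg3 replicate 1 was lowest for the copy too. The protein-coding gene PPP2R2D overlaps BNIP3 in RefSeq and had 892 and 698 counts in Rg3 libraries, against 694 and 779 counts in control libraries. The strand setting of the counting is not given in the sources used here, so reads from overlapping genes cannot be told apart.

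Of 12 mitophagy receptors and partners, BNIP3 among them, 11 were tested and 0 called, 5 above and 6 below the control level, at a median log2 fold change of 0.00. FUNDC1, another hypoxia-linked mitophagy receptor, averaged 15.8 CPM with Rg3 and 13.8 CPM in controls, with both Rg3 libraries above both controls (log2 fold change 0.20, SE 0.17). PHB2, an inner membrane receptor, had 224 and 202 CPM in Rg3 libraries, against 266 and 254 CPM in control libraries (log2 fold change −0.28, SE 0.13).

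**Figure D3:**
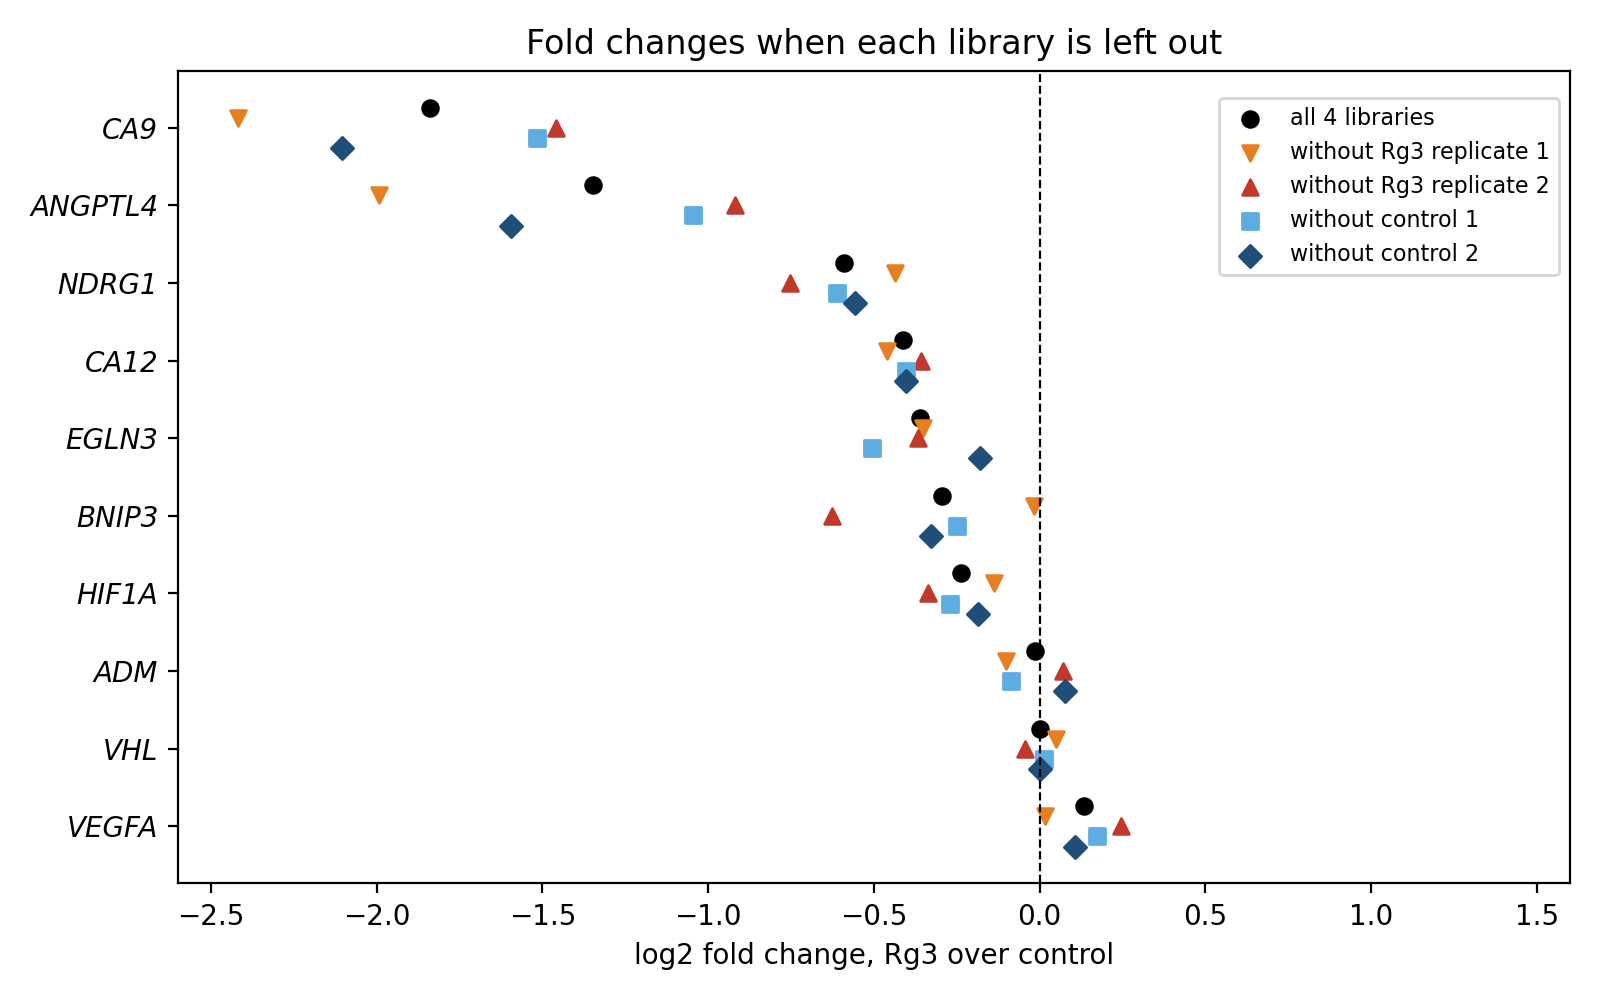
Log2 fold change of Rg3 over control for each gene with all 4 libraries (black circles) and with each library left out in turn. CA9 ranges from −2.42 to −1.46, ANGPTL4 from −1.99 to −0.92 and BNIP3 from −0.63 to −0.02, while CA12 ranges only from −0.46 to −0.36.

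A further list of 40 HIF targets outside glycolysis gave 35 tested genes, 13 above and 22 below the control level, at a median log2 fold change of −0.05, and 0 were called. Over all genes tested 47.5% were below the control level. The median of the list was −0.11 without Rg3 replicate 1. Both Rg3 libraries lay below both controls for 10 of the 35 and above both for 3, against 17.0% and 15.3% of all genes. Unadjusted p-values under 0.05 belonged to 3 of the 35, against 4.73% of all genes. They were BHLHE40, DDIT4 and STC1, of which DDIT4 and STC1 were picked out after their values were seen.

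BHLHE40, a transcriptional repressor induced by hypoxia, stood highest, with 105 and 58.2 CPM in Rg3 libraries and 37.3 and 38.6 CPM in control libraries. Its log2 fold change was 1.10 (SE 0.26), with an adjusted p of 0.603 in edgeR. Leaving out Rg3 replicate 1 gave 0.62, and leaving out Rg3 replicate 2 gave 1.46. A fit with 1 library in a group has no spread within that group, so for single genes only its estimates are given. DESeq2 called BHLHE40 (log2 fold change 1.11, adjusted p = 0.00557), as did edgeR without a low-count filter (log2 fold change 1.11, adjusted p = 5.98e-08).

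On the lower side, SPAG4, a HIF-induced gene of the nuclear membrane, had 2.66 and 2.82 CPM in Rg3 libraries, against 3.90 and 4.05 CPM in control libraries (log2 fold change −0.54, SE 0.23). DDIT4, an inhibitor of mTORC1 signalling, had 410 and 311 CPM in Rg3 libraries, against 494 and 459 CPM in control libraries (log2 fold change −0.40, SE 0.17). Leaving out Rg3 replicate 1 gave −0.61, and leaving out Rg3 replicate 2 gave −0.22. STC1, the stanniocalcin gene, had 2 and 8 counts in Rg3 libraries, against 18 and 15 counts in control libraries. Its log2 fold change was −1.77 (SE 0.67, edgeR adjusted p = 0.999), and on these few counts it ran from −3.23 to −0.95 when each library was left out in turn. Estimates for targets of both lists thus lay on both sides of the controls, with none called by edgeR over all 4 libraries. ADM and VEGFA were near the control level and CA9 and ANGPTL4 below it. BHLHE40, which is of the further list, was above it.

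**Figure D4:**
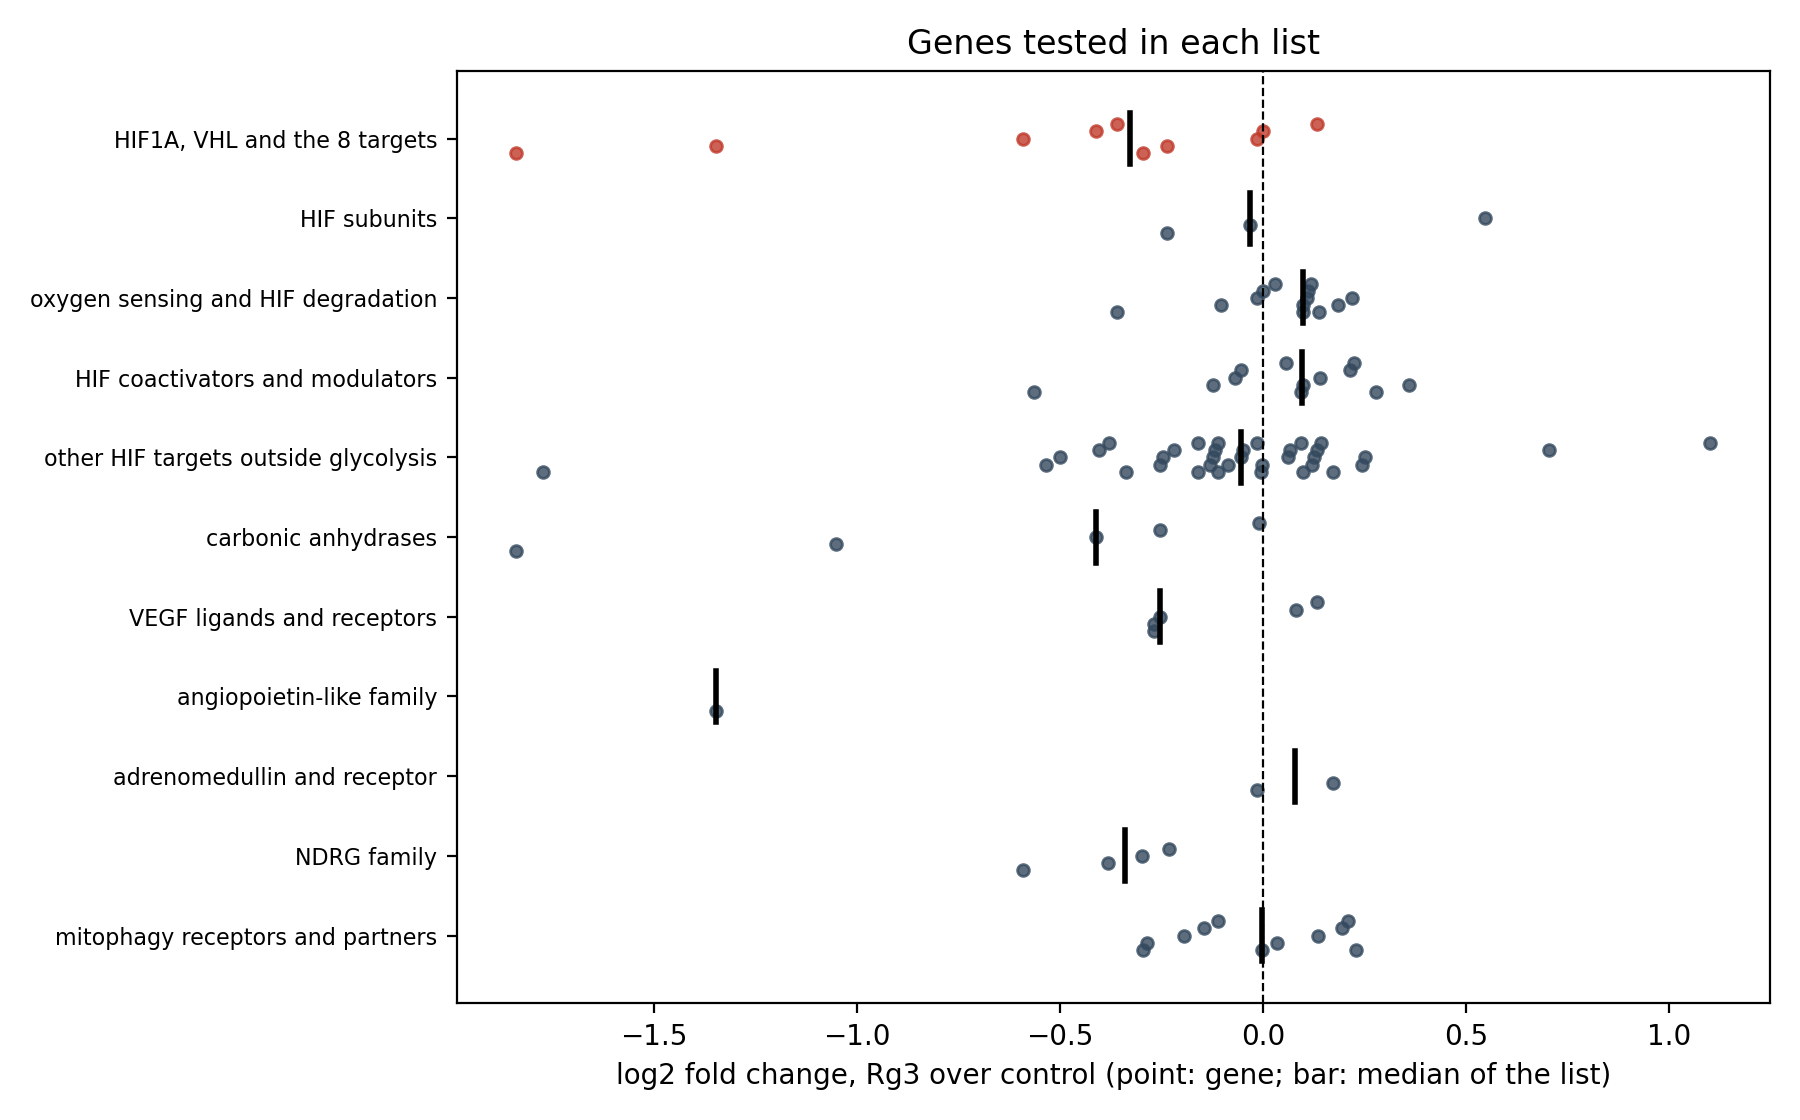
Log2 fold change of Rg3 over control for every tested gene of each list, 1 point per gene, with a bar at the list's median; HIF1A, VHL and the 8 targets are in red, and a gene can stand in several lists. The red points run from −1.84 to 0.13, and the 35 further HIF targets run from −1.77 to 1.10 around a median of −0.05.

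The profiles nearest to those of HIF1A and CA9 were sought among genes with a mean of at least 10 CPM, by the root mean square difference of centred log2 CPM over the 4 libraries. For HIF1A these were RPL10, APOO and SNORD16, with differences of 0.0162, 0.0212 and 0.0235. For CA9 these were KHSRPP1, RN7SL7P and PDK4, at 0.22, 0.31 and 0.51. KHSRPP1 and RN7SL7P are pseudogenes whose reads can come from other copies. PDK4, a kinase that inhibits pyruvate dehydrogenase, had 15.4 and 11.9 CPM in Rg3 libraries, against 27.8 and 29.6 CPM in control libraries. With 4 libraries many genes share a profile, so these are given as the nearest profiles only.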

How the data were processed

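Read counts per gene symbol were measured in 4 ribosomal RNA-depleted total RNA libraries, 2 of cells given Rg3 and 2 of control cells, grouped by the treatment label. The authors deposited raw counts, whole numbers with no normalisation; the genome build was GRCh37, per the submitters' processing notes, and the aligner, counter, annotation and strand setting are not given in the sources used here. The series text and the protocol name different sequencing platforms. Every row named a gene, and 14537 of 40205 rows had 0 counts in all libraries. The test was run with edgeR 4.0.16 under R 4.3.3 (filterByExpr at 10 counts and 15 counts in total, TMM, glmQLFit and glmQLFTest, treatment as the only term, 2 residual degrees of freedom). SEs are the log2 fold change divided by the root of F, and intervals use edgeR's total degrees of freedom. DESeq2 1.42.0, limma 3.58.1 (voom), other scalings, other filters, a replicate block and leaving out each library were alternatives; fits with 3 libraries assume that the lone library varies like the others. Scripts were tested on simulated data. Genes, lists and promoter motifs were chosen with earlier results of these data known. Of each list the text names called genes or, with none, the largest difference in each direction at a mean of at least 1 CPM without overlap of groups; other list genes were named after their values were seen. Promoter sequences are RefSeq's (GRCh38.p14). Depth ran from 24482846 to 30132517 counts.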

Additional observations from a re-analysis of the deposited data

How the results depend on the processing

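The 5 genes called higher and 0 called lower by edgeR over all genes became 36 and 18 with DESeq2, 90 and 124 without a low-count filter, and 31 to 428 and 18 to 456 when 1 library was left out; the cause was not tested. Of the 10 genes described, edgeR called 0, DESeq2 called 1 (CA9), edgeR without a filter called 2 (CA9 and ANGPTL4), and the fits that left out 1 library called 0 to 2. Same-numbered libraries are not stated to be paired, and over genes the difference of Rg3 replicates correlated with that of control replicates at 0.13. With the replicate number as a block, edgeR called 69 genes higher and 86 lower, among them 2 of the 10, CA9 (−1.88) and ANGPTL4 (−1.41), and also BHLHE40 (1.04, adjusted p = 0.00016). The sign of VHL turned with a filter of 1 CPM in 2 libraries (−0.0038), with voom (−0.00061) and, over fits that left out 1 library, VHL ran from −0.045 to 0.051. In those fits ADM ran from −0.10 to 0.075, EPAS1 from −0.025 to 0.95 and BNIP3P1 from −0.73 to 0.041. Of 110 values of the 10 genes under alternatives, 94 kept direction and side of the threshold, 11 passed it and 5 changed sign. Promoters of 3 genes held a core with ACGTG alone, against 6 with either core. At 16 to 106 counts, CA9 is limited by counting error as well as by 2 libraries per group.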
